A study of Mus musculus with 6 samples.

Results

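The integrated stress response was followed through 39 genes: 4 kinases and 2 phosphatase subunits that set the phosphorylation of the translation factor eIF2, 8 transcription factors, 5 enzymes of serine and one-carbon synthesis, 5 other enzymes of amino acid metabolism, 9 amino acid transporters and 6 other effectors. They were taken by gene symbol as regulators and targets of the pathway, with earlier results of these data known, and each matched exactly 1 of the 42365 genes in the count table. All 39 passed the filter on low counts in every comparison, and 36 had a mean of at least 1 CPM (counts scaled to library size and composition) in every group. The exceptions were Cth, Slc7a3 and Fgf21. The libraries came from cultured mouse neural progenitor cells (NPC), which can give rise to neurons and glia. Parental cells of wild-type genotype had 2 libraries, titled clone 1 and clone 2, and cells labelled knockout (KO) had 2 libraries from each of 2 clones, here clone 1 and clone 2. No treatment, time or age is given for any group, and each knockout line is a single clone. Separate cultures for libraries of a clone are not stated, so the spread between them may be technical. Fgf21 passed the filter on low counts only through labelled knockout libraries, where it is high.

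The response works as a relay. Stress-sensing kinases phosphorylate the alpha subunit of eIF2, which lowers protein synthesis in general but favours translation of Atf4 mRNA through short open reading frames upstream of its coding sequence. The factor ATF4 then binds DNA with C/EBP-family partners and induces genes of amino acid synthesis, amino acid uptake and stress adaptation, while phosphatase subunits reverse the signal. ATF4 is set largely at translation, so the mRNA counts below measure its transcript and those of its targets, not ATF4 protein or eIF2 phosphorylation.

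The libraries held 58871554 to 69530032 counts, and members of at least 1 CPM differed between the libraries of a group by a median factor of 1.03 in parental cells, 1.07 in clone 1 and 1.02 in clone 2. All 10 neural progenitor markers were above 1 CPM in every group, Sox2 at 304 to 363 CPM across the libraries, although Sox1 was at 60.4 and 60.5 CPM in parental libraries and at most 3.45 in labelled knockout ones. Marker sums of other states moved with the groups. The 10 astrocyte markers summed to 9984 and 10150.0 CPM in parental cells, 2966 and 3013 in clone 1 and 3884 and 3935 in clone 2. With the clones as replicates 6 of the 10 fell, 1 rose (S100b) and 3 did not pass (all genes: 13.6% fell and 13.0% rose). In clone 2 alone 7 were lower and 3 (Slc1a2, S100b and Aldoc) higher than in parental cells (all genes: 26.8% and 26.7%). The 10 G2/M genes, which mark dividing cells, summed to 14.6 and 15.9, 1244 and 1277 and 780.4 and 782 CPM, and the 10 oligodendrocyte-lineage markers to 1609 and 1611, 5382 and 5497 and 6361 and 6632. The part of these markers in the results below was not tested. In bulk RNA, fewer cells of a type and less RNA per cell cannot be told apart. Of the 10 microglial markers 9 were under 1 CPM in every group.

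With the clones as replicates of the labelled genotype, 17 of the 39 members rose, 3 fell and 19 did not pass (edgeR's quasi-likelihood test, Benjamini-Hochberg adjusted p under 0.05 over all 24506 genes). Across all genes tested, 13.0% rose and 13.6% fell, 26.7% in all. Each SE given below is that of the log2 fold change. The median log2 fold change was 0.61 for the members and 0.032 for all genes. In levels, all 4 labelled knockout libraries lay above both parental ones for 26 members and below them for 6. The same held for 27.1% and 29.6% of all genes, or 56.7% in either direction. Among the 26 is Fgf21, which passed the filter on low counts only through labelled knockout libraries. Amino acid and one-carbon enzymes made up 8 of the 17 that rose, and the 3 that fell were Atf3, Cebpb and Slc7a11. Fewer members passed when a parental library was left out, which left 1 residual degree of freedom: 8 rose and 2 fell without parental library 1, and 7 and 2 without parental library 2. Psat1, Aldh18a1, Pycr1, Cth, Got1, Slc7a1 and Stc2 passed in both cases, and so did Atf3 and Cebpb, while Mthfd2 passed only without parental library 1 (adjusted p = 0.0512 without library 2).

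**Figure D1:**
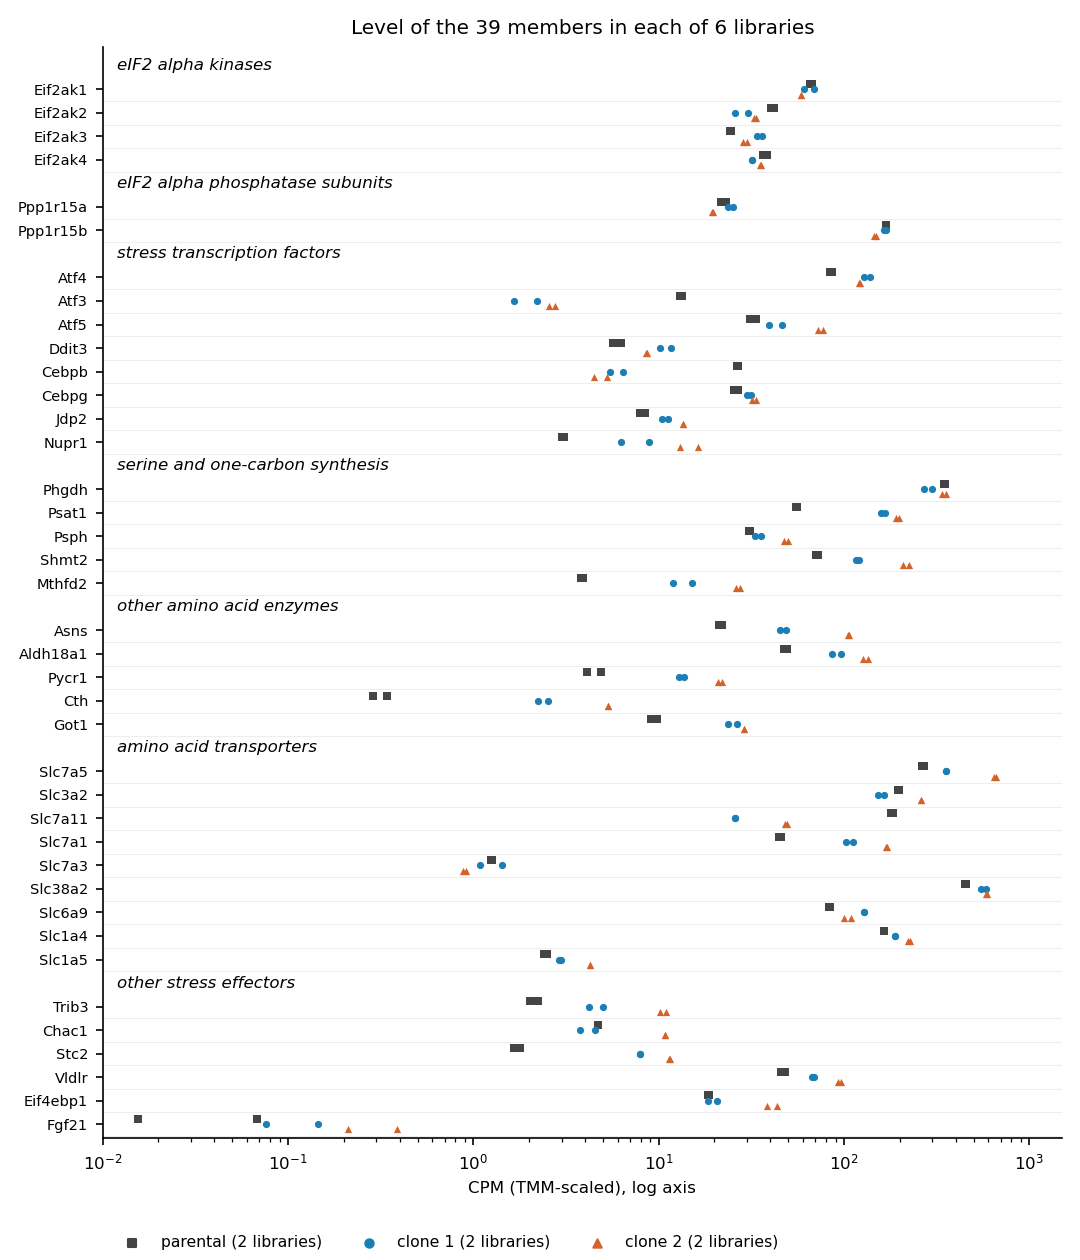
TMM-scaled CPM on a log axis for each of the 39 members in each of the 6 libraries, ordered by role, with squares for parental cells, circles for clone 1 and triangles for clone 2. Most amino acid enzymes step up from parental cells to clone 1 to clone 2, as Asns does at 21.5 ± 0.481, 47.0 ± 2.59 and 106 ± 1.06 CPM, while Atf3, Cebpb and Slc7a11 lie lower in the clones than in parental cells.

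Taken one at a time against parental cells in a fit of all 6 libraries, clone 1 had 24 members higher and 7 lower, and clone 2 had 29 higher and 7 lower (all genes: 54.5% called in clone 1 and 53.5% in clone 2, as 27.3% higher and 27.2% in clone 1, 26.7% and 26.8% in clone 2). The clones share the parental libraries, so these counts are not independent of each other. This fit takes the libraries of a clone as replicates, so its calls describe these clones only. The 29 include Fgf21, which passed the filter on low counts in this fit only through clone 2. The clones also differed from each other: 26 members were higher in clone 2 than in clone 1 and 8 were lower, beside 16.1% and 20.3% of all 23400 genes. Of the 24 members higher in both clones, 18 were higher in clone 2 than in clone 1, 4 (Eif2ak3, Atf4, Ddit3 and Slc6a9) were lower and 2 (Cebpg and Slc38a2) showed no call. The count of 8 lower members was the least settled and fell to 2 without clone 2 library 1 and to 5 without clone 2 library 2 or without either parental library.

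The element that ATF4 binds with C/EBP partners is known as the C/EBP-ATF response element. Its core was searched as TGATGNAA on either strand (TTNCATCA on the opposite one) in RefSeq promoters of build GRCm38.p6, each 300 bases long, from 250 before the start of transcription to 50 after it. The table held 42 promoters for 33 of the 39 members, and 12 of them (28.6%), each of a different gene, contained the core, against 3.97% of all 32851 promoters. The members were named for ATF4 in the first place, so this share is a description. The windows below show the core in capitals, upstream of the start, in 4 members that rose, in Chac1, which differed between the clones, and in 2 that fell.
Asns, chr6:7693210-7693268, minus strand: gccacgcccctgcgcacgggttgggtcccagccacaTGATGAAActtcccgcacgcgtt
Pycr1, chr11:120643808-120643887, minus strand: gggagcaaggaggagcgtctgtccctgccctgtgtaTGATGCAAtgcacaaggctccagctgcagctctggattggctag
Got1, chr19:43524664-43524743, minus strand: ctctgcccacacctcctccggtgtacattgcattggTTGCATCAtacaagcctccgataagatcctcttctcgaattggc
Nupr1, chr7:126625537-126625616, minus strand: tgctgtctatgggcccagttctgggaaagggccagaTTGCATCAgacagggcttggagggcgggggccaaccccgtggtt
Chac1, chr2:119351013-119351092, plus strand: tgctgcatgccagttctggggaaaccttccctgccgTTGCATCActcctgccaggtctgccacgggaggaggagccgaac
Atf3, chr1:191183400-191183479, minus strand: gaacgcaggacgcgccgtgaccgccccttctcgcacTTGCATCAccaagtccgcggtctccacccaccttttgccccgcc
Slc7a11, chr3:50443627-50443706, minus strand: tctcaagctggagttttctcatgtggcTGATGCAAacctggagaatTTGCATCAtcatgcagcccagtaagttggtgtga
The core began 23 bases before the start in Asns and 103 before it in Pycr1, and Slc7a11 carried it on each strand, starting 66 and 47 bases upstream. Other matches were in Vldlr, Jdp2, Fgf21, Slc1a4 (across the start) and Trib3 (within the transcript, from base 15). Of the 12 members with the core, 6 rose, 2 fell and 4 did not pass with the clones as replicates. Of the 21 with a promoter in the table and no match, 10 rose, 1 fell and 10 did not pass. With the clones as replicates, 13.0% of all genes rose and 13.6% fell. Between the clones, 11 of the 12 with the core and 11 of the 21 without it were higher in clone 2, while 0 and 7 were lower (all genes: 16.1% and 20.3%). Those without it include the eIF2 kinases and Ppp1r15a, and Eif2ak1, Eif2ak3 and Ppp1r15a were among the 7 lower. Any link of the core to these calls was not tested. No match says only that these letters are absent from the window.

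The kinases and phosphatase subunits at the head of the pathway differed little, and none of these 6 genes passed with the clones as replicates (all genes: 26.7% passed). Eif2ak3 encodes PERK, the kinase of the endoplasmic reticulum, and stood at 24.3 and 24.5 CPM in parental cells, 33.8 and 35.9 in clone 1 and 28.5 and 30.1 in clone 2. Every labelled knockout library was above both parental ones, by a log2 fold change of 0.43 (SE 0.12, adjusted p = 0.0533), just short of the threshold, and the gene rose in clone 1 alone (by 0.52, SE 0.062) and in clone 2 alone (by 0.26, SE 0.063). Eif2ak2 encodes PKR, which senses double-stranded RNA, and went the other way, at 41.7 and 40.2 CPM, then 25.9 and 30.5 in clone 1 and 33.3 and 32.6 in clone 2. It was lower in all 4 labelled knockout libraries (-0.39, SE 0.12, adjusted p = 0.0663). Eif2ak2 passed in 9 of 15 alternative analyses, among them that with DESeq2 size factors (adjusted p = 0.0493), and did not pass in 6. Eif2ak4, for the amino acid sensor GCN2, had means of 37.5 ± 1.14, 31.9 ± 0.0707 and 35.2 ± 0.269 CPM (± SD, n = 2) and fell in clone 1 (log2 -0.23, SE 0.056, adjusted p = 0.00213). Eif2ak1, for the haem-regulated kinase HRI that also relays mitochondrial stress, had means of 66.3 ± 1.60, 64.8 ± 5.32 and 58.5 ± 0.0424 CPM, and its parental and clone 1 libraries overlapped, while both clone 2 libraries lay below them. This lower level in clone 2 against parental cells (adjusted p = 0.0109) did not pass without parental library 2 (0.126) or without either clone 2 library.

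Ppp1r15b encodes CReP, the phosphatase subunit that is made all the time, and Ppp1r15a encodes GADD34, the subunit induced by stress. Ppp1r15b was at 168 and 169 CPM in parental cells, 168 and 164 in clone 1 and 145 and 149 in clone 2. It was lower in clone 2 (-0.20, SE 0.042, adjusted p = 0.000645; 0.0618 without clone 2 library 1). Ppp1r15a, at 21.7 and 23.2, then 23.6 and 25.3 in clone 1 and 19.5 and 19.7 CPM in clone 2, had a log2 fold change of 0.002 (SE 0.14) over both clones. The stress-induced subunit thus stood highest in clone 1 and lowest in clone 2. Its lower level in clone 2 (adjusted p = 0.0258) did not pass when a parental or clone 2 library was left out (up to 0.246). The difference between the clones passed (-0.32, SE 0.069, adjusted p = 0.00177).

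Among the 8 transcription factors 3 rose, 2 fell and 3 did not pass (all genes: 13.0% rose and 13.6% fell). Atf4, the central factor, was at 83.7 and 86.0 CPM in parental cells, 138 and 128 in clone 1 and 122 and 121 in clone 2. All labelled knockout libraries were above the parental ones without overlap, and the 2 clones lay close together. Atf4 rose 1.53-fold with the clones as replicates (log2 0.61, SE 0.089, adjusted p = 0.00744), and the adjusted p was 0.146 and 0.125 without parental library 1 or 2. Its mRNA was not higher in clone 2 than in clone 1 (log2 -0.14, SE 0.047, adjusted p = 0.0325), and this lower level in clone 2 lost its call when any single library was left out except clone 1 library 2, with adjusted p from 0.13 to 0.272. Ddit3 encodes CHOP, the factor tied to cell death in lasting stress, and was at 6.23 and 5.66, then 10.2 and 11.7 in clone 1 and 8.65 and 8.52 CPM in clone 2. It rose 1.68-fold (adjusted p = 0.0324; 0.198 and 0.289 without parental library 1 or 2) and, like Atf4, was highest in clone 1.

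Nupr1, a small stress-induced chromatin protein, rose 3.73-fold, from 3.08 and 3.0 CPM to 6.30 and 8.84 in clone 1 and 13.0 and 16.3 in clone 2 (adjusted p = 0.0144; 0.0628 and 0.0656 without parental library 1 or 2). It had the widest spread between libraries of a clone among members above 1 CPM, by a factor of 1.40 in clone 1 and 1.26 in clone 2, and the 3 groups still did not overlap. Atf5, which takes part in the response to mitochondrial stress, was at 33.4 and 31.1, 39.5 and 46.3 in clone 1 and 72.0 and 77.4 CPM in clone 2. Its levels rose in clone 1 1.33-fold and in clone 2 2.31-fold, and with the clones as replicates it missed the threshold (log2 0.90, SE 0.27, adjusted p = 0.0664). Atf5 passed in 6 of 15 alternative analyses, among them the DESeq2 test (adjusted p = 0.00761), and did not pass in 9. Cebpg, a dimer partner of ATF4, was higher by 0.31 (SE 0.10, adjusted p = 0.0833) and Jdp2, a repressor of the AP-1 family, by 0.61 (SE 0.17, adjusted p = 0.0513). For these 2 genes all labelled knockout libraries also lay above the parental ones, at 29.9 to 33.6 against 26.8 and 25.6 CPM for Cebpg, and at 10.4 to 13.6 against 8.47 and 7.88 CPM for Jdp2.

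The other 2 factors fell. Atf3, a stress- and injury-induced repressor that ATF4 can switch on, was at 13.1 and 13.4 CPM in parental cells, 1.66 and 2.20 in clone 1 and 2.76 and 2.55 in clone 2. Parental libraries were thus the high ones by 5.62-fold (SE 0.21, adjusted p = 0.00126). Cebpb, a C/EBP factor of inflammation and differentiation that also partners with ATF4, was at 26.8 and 26.5 CPM, then 5.44 and 6.45 in clone 1 and 4.45 and 5.24 in clone 2, and fell 4.83-fold (SE 0.15, adjusted p = 0.000624). Neither gene's parental and labelled knockout libraries overlapped, and both kept their calls with 1 parental library removed (adjusted p 0.00252 and 0.00248 for Atf3, 0.00169 and 0.00146 for Cebpb). Atf4 and Ddit3 thus moved opposite to Atf3 and Cebpb in the same libraries.

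**Figure D2:**
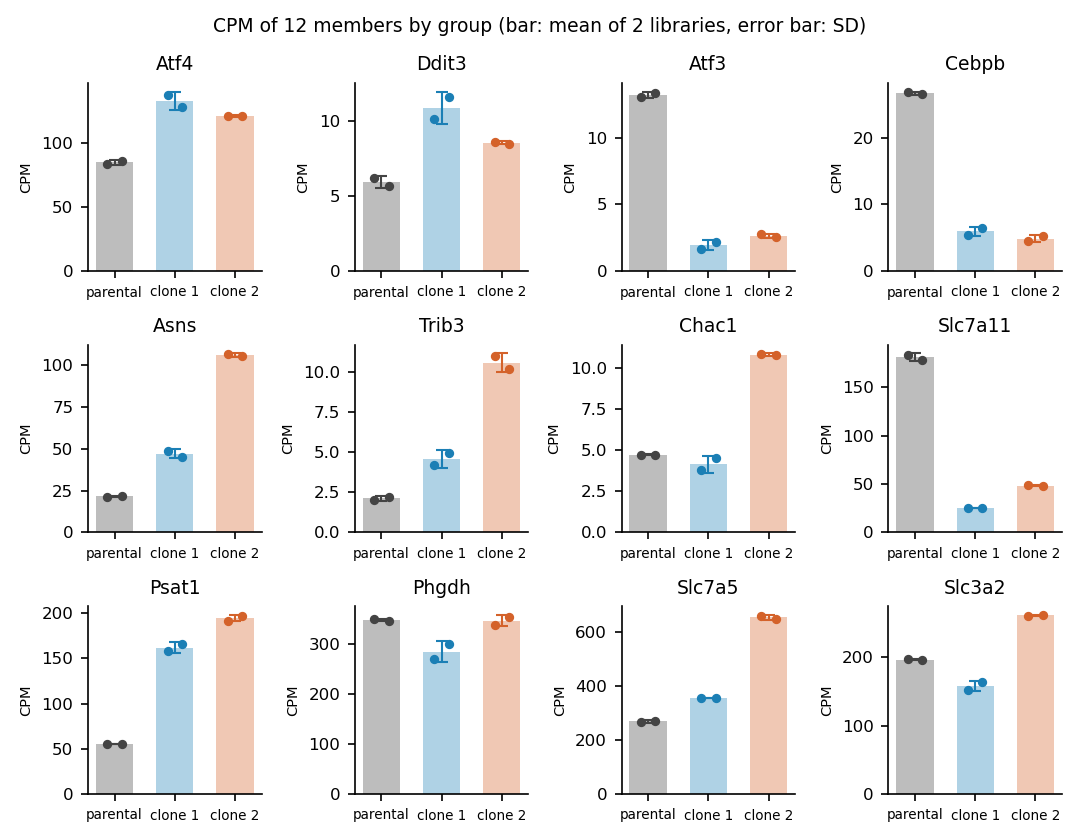
CPM of 12 members (bars, mean of the 2 libraries of a group; points, single libraries; error bars, SD; axes start at 0). Atf4 and Ddit3 are above parental cells in both clones and Atf3, Cebpb and Slc7a11 are below, while Chac1 and Slc3a2 are above parental cells only in clone 2 (10.8 ± 0.0707 and 261 ± 0.778 CPM).

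In serine and one-carbon synthesis 3 of 5 enzymes rose and 2 did not pass (all genes: 13.0% rose and 13.6% fell). Psat1, the aminotransferase of the middle step of serine synthesis, was at 55.6 and 54.9 CPM in parental cells, 158 and 166 in clone 1 and 192 and 197 in clone 2. It rose 3.30-fold (SE 0.12, adjusted p = 0.000779), with no overlap between groups. Phgdh, which catalyses the opening and committed step, did not follow it. Phgdh stood at 349 and 346 CPM in parental cells, 269 and 299.7 in clone 1 and 339 and 354 in clone 2. Clone 2 spanned the parental values, clone 1 lay below them (-0.29, SE 0.049, adjusted p = 9.82e-05), and the log2 fold change over both clones was -0.11 (SE 0.12, adjusted p = 0.564). Psph, the phosphatase of the last step, was at 30.9 and 30.6, 33.1 and 35.5 in clone 1 and 47.6 and 49.7 CPM in clone 2 and rose in clone 2 1.58-fold (SE 0.058, adjusted p = 4.94e-08). The difference of Psph in clone 1 was small (0.15, adjusted p = 0.0348) and did not pass without parental library 1 or 2 (0.16 and 0.212) or without clone 1 library 2 (0.0975), nor with either other scaling (up to 0.112).

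The mitochondrial one-carbon enzymes among the members rose in steps. Shmt2, which turns serine into glycine in mitochondria, was at 72.0 and 70.3 CPM, then 116 and 121 in clone 1 and 209 and 224 in clone 2, and Mthfd2, which handles the released one-carbon unit, at 3.89 and 3.80, then 11.9 and 15.2 in clone 1 and 26.2 and 27.5 in clone 2. Both genes had 3 separate levels, lowest in parental cells and highest in clone 2. Mthfd2 rose 5.39-fold (SE 0.35, adjusted p = 0.00762) and Shmt2 2.41-fold (SE 0.30, adjusted p = 0.0363). For Shmt2 the adjusted p was 0.207 and 0.22 without parental library 1 or 2, 0.0824 without a filter and 0.0511 among genes of at least 5 CPM. In the fit of all 6 libraries, Shmt2 passed against parental cells in clone 1 (0.73, SE 0.047) and in clone 2 (1.60, SE 0.048). That fit takes the libraries of a clone as replicates, so these calls describe the clones and not the labelled genotype.

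All 5 other amino acid enzymes rose by more than 2-fold, beside 1673 of all 24506 genes called higher by at least 2-fold. Asns, asparagine synthetase and a classic ATF4 target, was at 21.1 and 21.8 CPM in parental cells, 48.8 and 45.2 in clone 1 and 106 and 105 in clone 2. It was higher in clone 2 than in clone 1 by 2.25-fold (SE 0.051, adjusted p = 5.01e-11), beside 2.19-fold from parental cells to clone 1. With the clones as replicates Asns rose 3.64-fold (adjusted p = 0.0289; 0.316 and 0.31 without parental library 1 or 2 and 0.111 without a filter). Cth, which makes cysteine from cystathionine, was barely counted in parental cells, at 0.343 and 0.288 CPM (22 and 17 counts). It was at 2.23 and 2.52 CPM in clone 1 and 5.36 and 5.32 in clone 2, the largest rise of any member by 12.5-fold (SE 0.49, adjusted p = 0.00584). Got1, the cytosolic aspartate aminotransferase, was at 9.81 and 9.12, 26.4 and 23.7 in clone 1 and 28.7 and 28.8 CPM in clone 2 and rose 2.90-fold (SE 0.13, adjusted p = 0.00139), with the clones near each other.

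The proline pathway rose at both of its measured steps. Aldh18a1, which encodes the synthase that starts proline synthesis from glutamate, was at 49.3 and 47.1 CPM, then 86.1 and 96.6 in clone 1 and 127 and 135 in clone 2. Pycr1, the mitochondrial reductase of the closing step, was at 4.13 and 4.90, then 12.8 and 13.7 in clone 1 and 21.9 and 20.8 CPM in clone 2. Both were lowest in parental cells and highest in clone 2 with no overlap. Aldh18a1 rose 2.36-fold (SE 0.19, adjusted p = 0.00857) and Pycr1 3.93-fold (SE 0.27, adjusted p = 0.00622).

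Transporters split. Of 9, 3 rose, 1 fell and 5 did not pass (all genes: 13.0% rose and 13.6% fell). Slc7a11 encodes xCT, which imports cystine in exchange for glutamate, and is often listed as an ATF4 target. It was at 184 and 179 CPM in parental cells, 25.7 and 25.7 in clone 1 and 49.0 and 48.1 in clone 2. The parental libraries were the high ones by a wide margin. It fell 4.77-fold (log2 -2.25, SE 0.32, adjusted p = 0.00909; 0.0693 and 0.0669 without parental library 1 or 2), and was 1.89-fold higher in clone 2 than in clone 1 (SE 0.048, adjusted p = 4.55e-10). The gene that brings cystine in and the gene that makes cysteine, Cth, thus changed in opposite directions in each clone.

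Slc7a5 and Slc3a2 encode the light and heavy chains of the LAT1 transporter of large neutral amino acids, and the Slc3a2 chain also pairs with xCT. Slc7a5 was at 264 and 271 CPM in parental cells, 355 and 353 in clone 1 and 659 and 646 in clone 2. It rose 1.32-fold in clone 1 and 2.43-fold in clone 2 and missed the threshold with the clones as replicates (log2 0.94, SE 0.30, adjusted p = 0.0797). Slc7a5 passed in 5 of 15 alternative analyses, among them the DESeq2 test (adjusted p = 0.00677), and did not pass in 10. Slc3a2 was at 197 and 196, 152 and 163 in clone 1 and 261 and 262 CPM in clone 2. It was the only one of the 39 members that was called in opposite directions in the clones, lower in clone 1 (-0.32, SE 0.044, adjusted p = 1.19e-05) and higher in clone 2 (0.41, SE 0.044, adjusted p = 5.78e-07), and the clones differed by 0.72 (SE 0.044, adjusted p = 2.87e-09). Per kilobase of exon, the light chain stood 1.30 times as high as the heavy chain in parental cells, 2.13 times in clone 1 and 2.38 times in clone 2.

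Slc7a1, the main importer of arginine and lysine, was at 45.8 and 44.6 CPM, then 112 and 102 in clone 1 and 169 and 171 in clone 2, and rose 3.14-fold (SE 0.23, adjusted p = 0.00698). Slc38a2, the glutamine and small neutral amino acid importer SNAT2, had the highest CPM of the members in parental cells and clone 1, at 453 and 449.7, 586 and 548 in clone 1 and 592 and 585 CPM in clone 2. It rose 1.31-fold (SE 0.086, adjusted p = 0.027; 0.365 and 0.392 without parental library 1 or 2). Slc6a9, the glycine transporter GlyT1, was at 83.2 and 83.5, 128 and 128 in clone 1 and 99.5 and 109 CPM in clone 2, highest in clone 1, and rose 1.42-fold (adjusted p = 0.031; 0.245 and 0.246 without parental library 1 or 2, 0.0552 without clone 1 library 2 and 0.0522 without clone 2 library 2). Slc1a4, an exchanger of alanine, serine and cysteine, rose in clone 1 by 0.20 and in clone 2 by 0.45 without passing over both (0.37, SE 0.11, adjusted p = 0.0707). Slc1a5, the glutamine exchanger ASCT2, was low at 2.40 to 4.25 CPM and rose in clone 2 only among the single-clone tests (0.79, adjusted p = 9.89e-05; clone 1 0.25, adjusted p = 0.136), with the clone difference itself passing (adjusted p = 0.0039). Slc7a3, an arginine and lysine importer, was at 0.875 to 1.43 CPM in all libraries with no call in any comparison.

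Of the 6 other effectors, 3 rose and 3 did not pass (all genes: 13.0% rose and 13.6% fell). Stc2, a secreted glycoprotein induced by stress of the endoplasmic reticulum, was at 1.78 and 1.66 CPM in parental cells, 7.94 and 7.88 in clone 1 and 11.3 and 11.5 in clone 2, a 5.75-fold rise (SE 0.24, adjusted p = 0.00193). Trib3, a pseudokinase that restrains ATF4 and CHOP in a feedback loop, was at 2.02 and 2.22, then 4.19 and 4.98 in clone 1 and 11.0 and 10.2 CPM in clone 2. It rose 3.67-fold (adjusted p = 0.029; 0.176 and 0.151 without parental library 1 or 2) and was 2.31-fold higher in clone 2 than in clone 1. Vldlr, a receptor for reelin and lipoproteins, was at 45.7 and 47.8, 69.3 and 67.3 in clone 1 and 95.8 and 93.1 CPM in clone 2 and rose 1.78-fold (adjusted p = 0.0226; 0.118 and 0.096 without parental library 1 or 2). These 3 genes followed the same order of groups, with clone 2 on top.

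Chac1 and Eif4ebp1 were near their parental level in clone 1 and above it in clone 2. Chac1, an enzyme that degrades glutathione, was at 4.70 and 4.73 CPM in parental cells, 3.78 and 4.51 in clone 1 and 10.8 and 10.8 in clone 2. The clone 1 libraries were slightly below the parental ones without a call (-0.18, SE 0.12, adjusted p = 0.199), and those of clone 2 were above them by 2.29-fold (SE 0.11, adjusted p = 8.38e-08). Eif4ebp1, an inhibitor of cap-dependent translation, was at 18.5 and 18.8, 18.4 and 20.5 in clone 1 and 38.2 and 43.5 CPM in clone 2. It rose 2.19-fold in clone 2 (SE 0.076, adjusted p = 1.57e-09), and in clone 1 the difference was 0.066 (SE 0.078, adjusted p = 0.501). The difference between the clones passed for Chac1 (1.38, SE 0.11) and Eif4ebp1 (1.07, SE 0.075). Fgf21, a hormone released under mitochondrial and nutrient stress, had 1 and 4 counts in parental cells, 5 and 10 in clone 1 and 14 and 24 in clone 2. It was higher in clone 2 than in parental cells by a log2 fold change of 2.82 (SE 0.74). Only in clone 2 did both libraries exceed 10 counts, so Fgf21 was tested through the group where it is high. Its call in clone 2 is therefore no support, and it was lost when parental library 1 or clone 2 library 2 was left out.

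**Figure D3:**
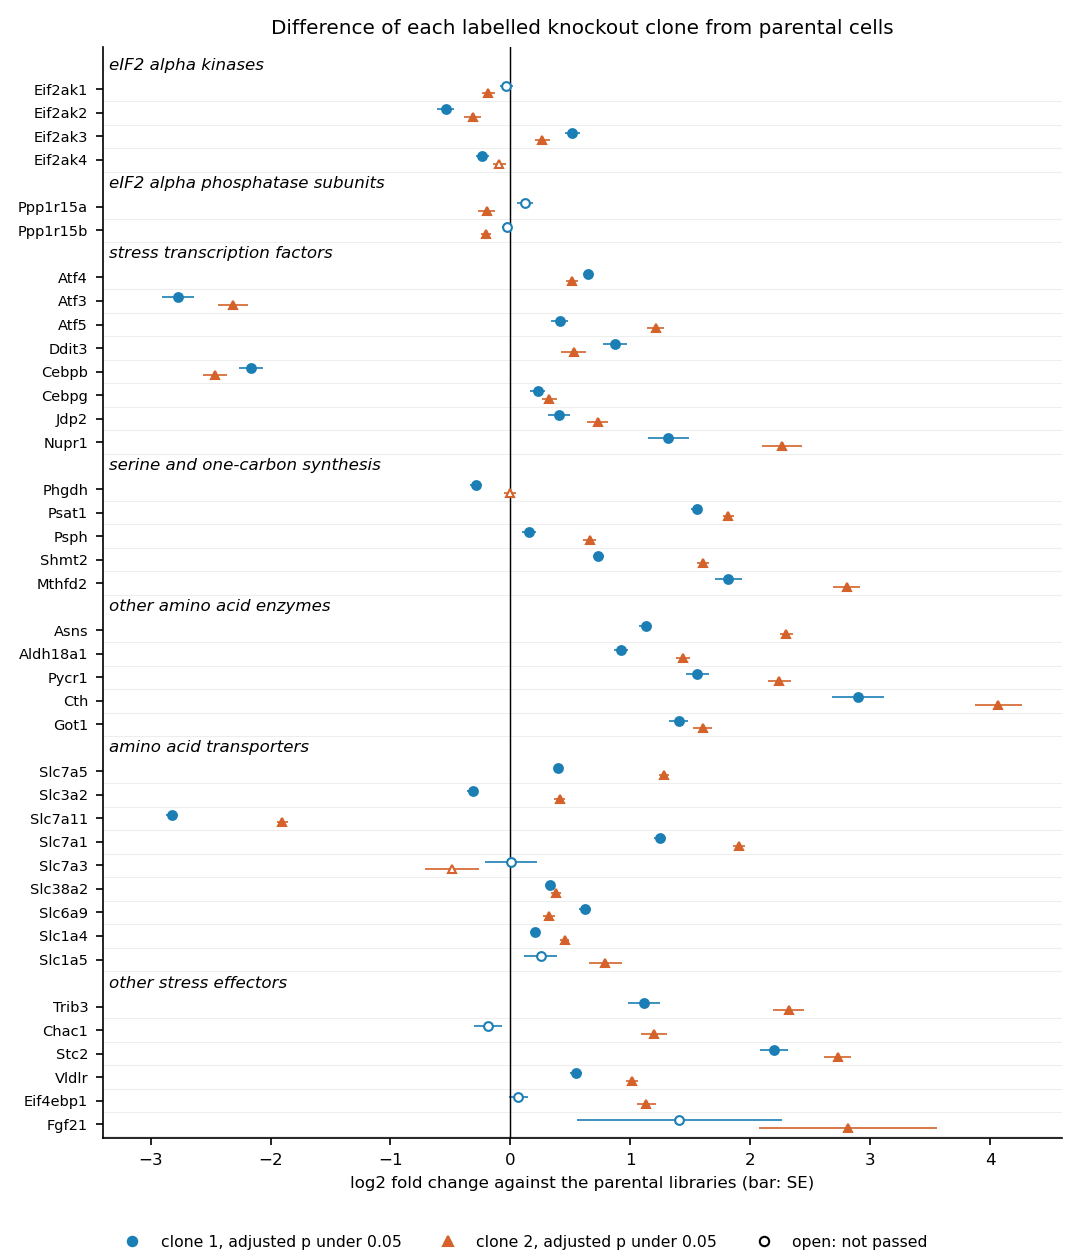
Log2 fold change of each member in clone 1 (circles) and clone 2 (triangles) against the parental libraries, with its SE, by role; open symbols did not pass an adjusted p of 0.05. All 5 other amino acid enzymes lie further right in clone 2, Eif2ak3, Atf4, Ddit3 and Slc6a9 lie further right in clone 1, and Slc3a2 is the only member with filled symbols on opposite sides of 0.

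Compared per kilobase of merged exon, the abundant members in parental cells were Phgdh (139.8 CPM per kilobase), Slc7a5 (72.2), Slc3a2 (55.7), Slc38a2 (51.1), Slc1a4 (41.8) and Atf4 (36.0). The order changed in the clones. Slc7a5 was at 95.4 in clone 1 and 176 in clone 2, where it exceeded Phgdh at 139. Asns moved from place 18 of 39 in parental cells (7.85) to place 9 in clone 2 (38.7), Cebpb from 9 (17.7) to 33 (3.22) and Slc7a11 from 12 (13.0) to 32 (3.48). Ddit3, Trib3 and Nupr1 stayed low, at 3.47, 0.999 and 1.21 CPM per kilobase in parental cells and 5.01, 4.99 and 5.82 in clone 2. In parental cells Cth, Fgf21 and Slc7a3 held the lowest places.

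Other genes of the pathway, listed apart from the members, gave the following counts, beside 13.0% of all genes that rose and 13.6% that fell with the clones as replicates. Of 17 genes for subunits of eIF2 and eIF2B, related factors and upstream regulators, 3 rose and 2 fell with the clones as replicates. None did so by 2-fold, and the median was -0.01. Dele1, which carries the mitochondrial stress signal to HRI, rose 1.49-fold, from 44.7 ± 1.46 CPM to 64.3 ± 4.39 and 66.1 ± 0.467 (SD, n = 2, adjusted p = 0.00891). Eif2s2 and Eif2a rose 1.31-fold and 1.54-fold. Eif2a encodes a separate initiation factor, not the alpha subunit of eIF2. Impact, an inhibitor of GCN2, fell by 0.67 on the log2 scale (adjusted p = 0.00933). Of 20 cytosolic aminoacyl-tRNA synthetases, which charge tRNAs with amino acids and include many ATF4 targets, 3 rose (Vars1, Aars1 and Iars1) and 1 fell, with a median log2 fold change of 0.20. Against parental cells 8 were higher and 7 lower in clone 1 (all genes: 27.3% and 27.2%), and 11 and 3 in clone 2 (26.7% and 26.8%). Between the clones 13 were higher in clone 2 and 0 lower (all genes: 16.1% and 20.3%). Aars1 illustrated this at 107 ± 2.05, 138 ± 5.94 and 190.4 ± 7.35 CPM.

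Of 20 other reported targets of ATF4 or CHOP, 6 rose and 4 fell. For this and the next lists, 13.0% of all genes rose and 13.6% fell. Mthfd1l, a mitochondrial one-carbon enzyme, rose 4.54-fold (SE 0.13, adjusted p = 0.000554) and Gpt2, the mitochondrial alanine aminotransferase, 1.99-fold (adjusted p = 0.00336), while Bcl2l11, which encodes the death effector BIM, fell by 2.12 (adjusted p = 0.000251). In this list 13 genes were higher in clone 2 than in clone 1 and 2 lower (all genes: 16.1% and 20.3%). Among 15 amino acid and one-carbon enzymes outside the members, 2 rose (Shmt1, 3.79-fold, and Got2, 1.58-fold) and 4 fell. Cbs, which makes the cystathionine that Cth cleaves, dropped from 28.8 and 30.4 CPM to 0.366 and 0.495 in clone 1 and 0.498 and 0.681 in clone 2 (log2 -5.83, SE 0.21, adjusted p = 0.000216). The enzymes of the 2 successive steps from homocysteine to cysteine thus moved in opposite directions. Among 18 other amino acid transporters 4 rose and 7 fell, with Slc38a3 up 4.30-fold and the glutamine importer Slc38a1 down from 2024 ± 10.6 CPM to 620.4 ± 13.7 and 729 ± 1.70. Astrocyte markers moved with the same groups, and their part in these transporter values was not tested. Slc1a2 and Slc1a3 belong to both lists, so the lists are not separate observations. Of 20 ER chaperones and genes of the XBP1 and ATF6 branches, which answer misfolded protein in the endoplasmic reticulum, 4 rose and 3 fell, with a median of -0.03; Pdia4 and Calr were among those that fell (-0.95 and -0.64 on the log2 scale).

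**Figure D4:**
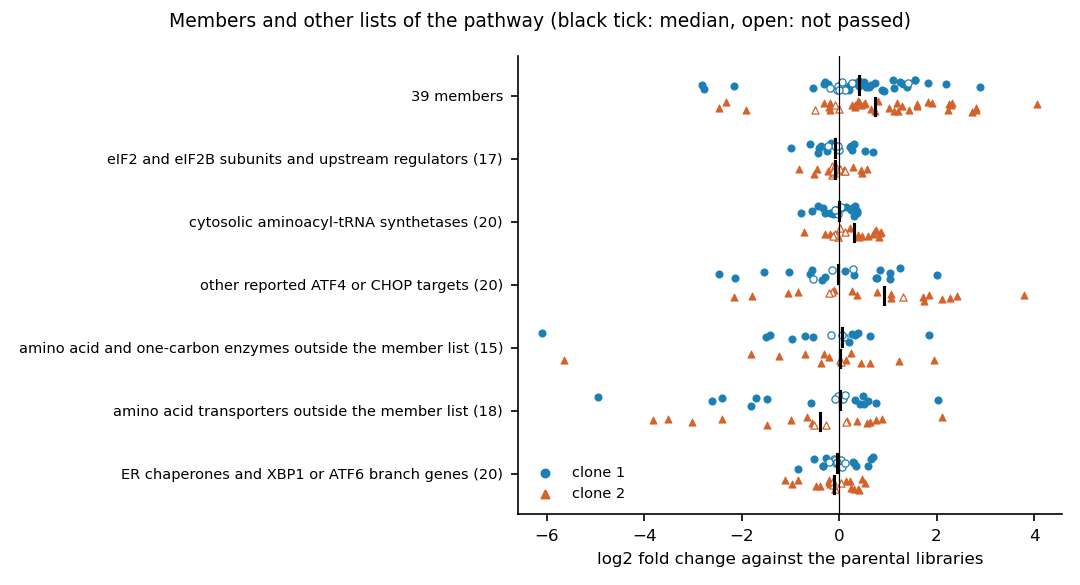
Log2 fold change against parental cells of the 39 members and of 6 other lists (number of genes in brackets), with 1 point per gene, circles for clone 1 above triangles for clone 2, open where the test was not passed, and a black tick at the median. The members' medians are 0.40 in clone 1 and 0.73 in clone 2, and those of the ER chaperone list -0.05 and -0.10.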

How the data were processed

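The data were RNA counts of 6 libraries. Per the labels' protocols, column-purified RNA went into an ultra-low-input or a TruSeq kit, with no word on which library had which. The submitters' processing notes name STAR, featureCounts, GRCm38.p6 and mm10. Tool versions and settings for strand and multi-mapping reads are not given in the labels or notes used here. Whole-number, unnormalized counts per gene were what the authors deposited. Without strand, reads of overlapping genes on opposite strands cannot be separated. Columns were matched to samples by library name and groups taken from titles.

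Counts were tested in R 4.3.3 with edgeR 4.0.16 (filterByExpr with a minimum count of 10, TMM scaling, robust quasi-likelihood test, Benjamini-Hochberg adjustment, threshold 0.05), as 2 clone sums against 2 parental libraries for the genotype, and in 1 fit of 6 libraries for contrasts of groups. SE is the log2 fold change divided by the square root of F. Exon lengths came from GENCODE M21 (GRCm38). The fits were tested on simulated data. Alternatives were DESeq2 size factors, upper quartile scaling, no filter, at least 5 CPM, DESeq2 1.42.0, a replicate block, libraries as replicates, and leaving out clones or libraries. All members may be named; of other lists, up to 4 genes with the smallest adjusted p. Members and lists were chosen with earlier results of these data known. The targeted gene and 1 gene of another list are not reported here.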

Additional observations from a re-analysis of the deposited data

Results flagged for a closer look

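The difference of the 2 labelled knockout clones from each other passed the test for 34 of the 39 members, beside 36.4% of all 23400 genes. The test took the libraries of a clone as replicates, and their spread may be technical, so the calls describe these 2 clones only. Values are log2 fold changes of clone 2 against clone 1. The largest rises in clone 2 were in Chac1 (1.38), Trib3 (1.21), Asns (1.17), Cth (1.17), Eif4ebp1 (1.07), Mthfd2 (0.99), Nupr1 (0.95), Slc7a11 (0.92), Slc7a5 (0.88), Shmt2 (0.87) and Atf5 (0.80). Next came Slc3a2 (0.72), Pycr1 (0.69), Slc7a1 (0.66), Slc1a5 (0.54), Stc2 (0.53), Aldh18a1 (0.52), Psph (0.51), Vldlr (0.47) and Atf3 (0.46), and Jdp2 (0.33), Phgdh (0.28), Psat1 (0.26), Slc1a4 (0.25), Eif2ak2 (0.23) and Got1 (0.20) were higher by less. The members lower in clone 2 were Ddit3 (-0.35), Ppp1r15a (-0.32), Cebpb (-0.30), Slc6a9 (-0.29), Eif2ak3 (-0.25), Ppp1r15b (-0.17), Eif2ak1 (-0.15) and Atf4 (-0.14). In either direction, the calls of Eif2ak1, Eif2ak2, Eif2ak3, Ppp1r15b, Atf4, Atf3, Ddit3, Cebpb and Got1 were lost when 1 or more single libraries were left out.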

How the results depend on the processing

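Replicate numbers are shared by the groups, but deviations of same-numbered libraries correlated at -0.00746, -0.0152 and 0.0191. No shift common to same-numbered libraries was thus seen across genes. Whether libraries shared a batch in another way could not be checked. With the replicate block, 13140 genes and 28 higher and 7 lower members were called in the labelled knockout cells, against 6532, 17 and 3 with clone sums. Libraries as replicates gave 13213, 28 and 7; clone 2 alone 13475, 29 and 7; clone 1 alone 13495, 25 and 7. Leaving out 1 library at a time gave 2529 to 6714 genes, 7 to 18 members higher and 2 to 4 lower, lowest without a parental library, where fewer samples remain. With a mean of at least 5 CPM, fewer genes were tested, and 3788 were called in labelled knockout cells, 8014 in clone 1 and 7845 in clone 2. In clone 2, 7 lower members became 4 to 7 across left-out libraries. The 8 members lower in clone 2 than in clone 1 became 5 with upper quartile scaling, 5 above 5 CPM, 5 with DESeq2 and 2 to 6 across left-out libraries; the cause was not tested.

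Log2 fold changes that changed sign were mostly near 0. In labelled knockout cells Ppp1r15a was -0.023 with DESeq2 size factors, -0.074 with upper quartile scaling, -0.059 above 5 CPM, -0.023 with DESeq2, -0.038 with the block, -0.038 with libraries as replicates, -0.173 in clone 2 alone and -0.052 to 0.05 across left-out libraries. Without a filter Eif2ak1 was 0.018 and Ppp1r15b 0.014 (0.009 and 0.016 in clone 1). Phgdh was 0.017 in clone 2 alone; in clone 1 alone Ppp1r15b was 0.001, Slc3a2 -0.285, Slc7a3 0.038 and Chac1 -0.154. In clone 1 Slc7a3 was -0.007 with DESeq2 size factors, -0.035 with upper quartile scaling, -0.008 with DESeq2 and -0.001 with the block. Across left-out libraries it ranged over -0.192 to 0.21, Eif2ak1 over -0.101 to 0.063 and Ppp1r15b over -0.043 to 0.006. In clone 2 Phgdh was 0.063 without a filter and -0.004 to 0.071 across left-out libraries. Genes of the lists outside the members were not run under these alternatives. Depth limits Fgf21 most, at 1 to 24 counts a library.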
